A study of Mus musculus with 77 samples.

Results

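The messenger RNAs that came down with the Argonaute 2 protein (AGO2) were compared between stress-susceptible and stress-resilient mice in the BNST. The BNST (bed nucleus of the stria terminalis) is part of the extended amygdala and takes part in anxiety-like behavior. The samples were the 9 libraries of AGO2-bound mRNA that the labels give as resilient (5) or susceptible (4), out of 77 samples in the series, and every one of the 16587 genes in their table was tested. Each library came from a pool of 3 BNST of male mice, aged 8 weeks by the labels. The labels write the strain as C57BL/6Crl and the paper as C57BL/6NCrl. All 9 pools had gone through chronic social defeat stress (CSDS), in which a mouse is repeatedly attacked by an aggressive resident mouse. Resilient and susceptible animals were separated by their behavior afterwards. Defeated mice that kept away from an unfamiliar mouse in a social avoidance test were classed as susceptible and the others as resilient, and animals from the extremes were chosen. Tissue was taken 6 to 8 days after the last defeat. A further 5 control pools of undefeated mice of the same strain, sex and age were in the same table, and they show on which side of the unstressed level each gene lay. There was no transgene or knockout, and the pools do not separate single animals.

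AGO2 is the protein of the RNA-induced silencing complex that holds a mature miRNA. The miRNA guides it to mRNAs, mostly through pairing between the seed of the miRNA (bases 2 to 8) and a matching stretch in the 3′UTR, and a bound mRNA is then translated less or degraded. The amount of an mRNA in an AGO2 pull-down therefore depends on how much of that mRNA the tissue holds and on how much of it is bound. There was no library of the unbound RNA for these pools, so a change in total mRNA and a change in binding cannot be told apart here. In pooled tissue, fewer cells of a type and less RNA per cell cannot be told apart either.

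The miRNAs that were most abundant on AGO2 in the same BNST experiment are shown here because their seeds are the ones searched for in the 3′UTRs of the leading genes. In the AGO2 miRNA libraries (5 control, 5 resilient and 3 susceptible pools), the 6 most abundant were 2 members of the let-7 family, which share a seed, and 4 others with a seed each. Mature sequences are those of RefSeq for GRCm38, written 5′ to 3′, with the seed in capitals.
miR-434-3p: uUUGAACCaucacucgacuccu
miR-22-3p: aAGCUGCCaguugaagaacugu
let-7e-5p: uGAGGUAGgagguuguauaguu
let-7d-5p: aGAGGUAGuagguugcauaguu
miR-30a-5p: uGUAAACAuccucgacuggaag
miR-92b-3p: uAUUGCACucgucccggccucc

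They lie at chr12:109594565-109594586 (plus strand), chr11:75463772-75463793 (plus), chr17:17830366-17830387 (plus), chr13:48536078-48536099 (minus), chr1:23272274-23272295 (plus) and chr3:89227126-89227147 (minus), in the order printed. None of the 6 was called between susceptible and resilient pools. Here and below, a feature was called when limma gave an unadjusted p under 0.05 and the fold change was at least 1.2. Of all 788 miRNAs, 31 were called (3.93%), 16 higher and 15 lower in the susceptible pools, and none had an adjusted p under 0.05 in limma (the smallest was 0.279, with 36 at an unadjusted p under 0.05). In the fit with sample weights and in the fit without susceptible pool 4, 1 miRNA passed the adjusted threshold.

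The 3 called miRNAs with the smallest p are shown next, of which let-7c-5p has the seed of let-7e-5p and let-7d-5p, together with miR-384-5p, a called miRNA with the seed of miR-30a-5p.
miR-485-3p: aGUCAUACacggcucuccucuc
let-7c-5p: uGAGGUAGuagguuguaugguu
miR-30e-3p: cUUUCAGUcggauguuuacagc
miR-384-5p: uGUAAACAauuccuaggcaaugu

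miR-485-3p measured 11.15, 11.31, 11.65, 11.42 and 11.12 log2 CPM (reads of the feature scaled to library size, on the log2 scale) in resilient pools 1 to 5 and 12.25, 11.81 and 11.73 in susceptible pools 1, 2 and 4. Every susceptible pool was above every resilient pool, with a difference of 0.60 on the log2 scale (SE 0.14, adjusted p = 0.279 in limma, exact permutation p = 0.0179, which is the smallest that 3 against 5 pools can give). miR-485-3p lies at chr12:109734946-109734967 (plus strand), miR-30e-3p at chr4:120772618-120772639 (minus) and miR-384-5p at chrX:105344332-105344354 (minus). The table lists let-7c-5p once for each of its 2 gene copies, and the mature sequence is the same. The entry with more reads measured 10.41 to 10.89 log2 CPM in the resilient pools and 10.95 to 11.25 in the susceptible pools, a difference of 0.48 (SE 0.12), and the other entry differed by 0.28 (SE 0.12). let-7e-5p lay 0.28 higher (SE 0.14) and let-7d-5p 0.09 higher (SE 0.10), and neither passed the test. miR-30e-3p, from the other arm of a miR-30 hairpin and with another seed, was called lower (-0.38, SE 0.11). Of the miRNAs with the seed of miR-30a-5p, miR-384-5p was called lower (-0.39, SE 0.18), and miR-30a-5p itself lay 0.18 lower (SE 0.10) with no overlap between groups, and passed neither the p nor the fold criterion.

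Reads on the 16587 genes, recovered from the deposited values, ranged from 3701281 to 10659882 in the resilient pools, from 5146998 to 7604641 in the susceptible pools and from 4496314 to 6162932 in the control pools. Resilient pool 5 was the shallowest, with 240 genes at 0 reads, and resilient pool 3 the deepest, with 4. Resilient pool 3 also stood apart from the other resilient pools in what it held. Over the 12639 genes with a mean of at least 2 log2 CPM, its median absolute distance from the mean of the other pools of its group was 0.29. The other 13 pools had 0.12 to 0.22 by the same measure. Its summed level of 16 striatal projection neuron markers was 6993 CPM, against 2302 to 5618 in the other resilient pools and 2315 to 5578 in the susceptible pools. The control pools ran from 4160 to 6673 CPM. Its summed level of 15 oligodendrocyte markers, 2806 CPM, was the lowest of the resilient pools (the others 4257 to 5212). The susceptible pools had 2779 to 4455 CPM and the control pools 4285 to 6186. Results that rest on resilient pool 3 are given with and without it, and the part of these markers in the gene differences was not tested. Gad1 and Gad2, the enzymes that make GABA, were present in all 9 pools at a median of 102 and 43.3 CPM per kb of transcript, against 9.27 for the cortical glutamate transporter Slc17a7 and 20.5 for its subcortical relative Slc17a6. The GABAergic make-up known for the BNST was thus present in every pool. The striatal markers Ppp1r1b and Drd1 were present too, at a median of 135 and 49.0 CPM per kb.

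Between susceptible and resilient pools 355 of 16587 genes were called (2.14%), of which 158 were higher (0.953%) and 197 lower (1.19%) in the susceptible pools. The median difference over all genes was 0.01 on the log2 scale. No gene had an adjusted p under 0.05 in limma, where 401 had an unadjusted p under 0.05, and the smallest adjusted p was 1.00. Those 401 genes were also fewer than the share of 0.05 that chance alone would give. The calls are therefore a ranking of candidates, and each value below is read against the spread of its own pools. With voom scaled to the total reads of each pool, 539 genes were called and 457 of them were higher, so that 84.8% of the calls were higher against 44.5% in the values as deposited, and the median over all genes moved to 0.08. Without resilient pool 3, 947 genes were called (5.71%), 384 higher and 563 lower, among them 307 of the 355 in the same direction, and the smallest adjusted p was 0.125.

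Of the called genes, 267 were protein-coding and 134 had a mean under 2 log2 CPM over the 9 pools, where single reads weigh much. Among the 221 called genes above that level the median difference was 1.35-fold and the largest 2.20-fold. Genes whose susceptible pools lay wholly above the resilient pools numbered 61 of 16587 (0.368%), and 34 of them were called. Genes wholly below numbered 37 (0.223%), and 18 of them were called. If pools were assigned to the groups at random, a gene would lie wholly on a given side with a chance of 0.00794. Both counts were smaller than that share of the 16587 genes. Lack of overlap was therefore not more frequent than chance gives, and by itself does not set a gene apart. Of the 355 called genes, 74 were called in each of the 14 fits that left out 1 library, 37 higher and 37 lower.

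**Figure D1:**
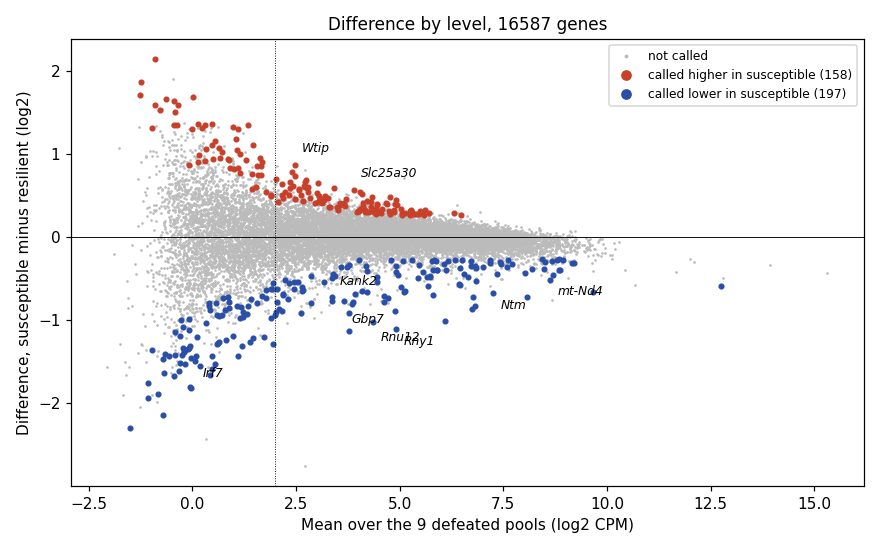
Difference between susceptible and resilient pools (vertical axis, log2) against the mean level over the 9 defeated pools (horizontal axis, log2 CPM) for 16587 genes. Red points are the 158 genes called higher and blue points the 197 called lower, and the dotted line marks 2 log2 CPM, above which no called difference exceeds 1.14 in size.

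The leading genes were the 12 called higher and the 12 called lower with the smallest p among genes with a mean of at least 2 log2 CPM, leaving out predicted genes, Riken clones and pseudogenes. The leading higher genes differed by 1.23-fold to 1.58-fold and the leading lower genes by 1.31-fold to 1.71-fold. The groups did not overlap for 8 of the 12 higher and 4 of the 12 lower genes. All 24 were also called without resilient pool 3, and 23 were called whichever of the 14 libraries was left out. The exception was Ift122, a component of intraflagellar transport in cilia, whose call was lost without resilient pool 5 or susceptible pool 4. These counts are descriptions, because the genes were chosen by their small p in the same libraries.

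The smallest p of all belonged to Gbp7 (ENSMUSG00000040253, chr3:142530342-142550149 on the plus strand), a guanylate-binding protein of the interferon-induced GTPase family. It measured 4.31, 3.81, 3.72, 4.07 and 4.12 log2 CPM in resilient pools 1 to 5 and 3.24, 3.68, 3.13 and 2.88 in susceptible pools 1 to 4. Every susceptible pool was below every resilient pool and below every control pool (3.85 to 4.23). The difference was -0.77 (SE 0.17, 95% interval -1.13 to -0.42, p = 0.000262 and adjusted p = 1.00 in limma, two-sided exact permutation p = 0.00794, the smallest that 4 against 5 pools can give). Gbp7 belongs to a family of similar genes, and reads shared between them could have been lost or split in counting.

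Kank2 (ENSMUSG00000032194, chr9:21766784-21798744, minus strand) codes for an ankyrin-repeat protein that links cell adhesions to the cytoskeleton. Its resilient pools measured 4.27, 3.86, 3.36, 3.35 and 3.55 log2 CPM and its susceptible pools 2.83, 3.18, 2.94 and 2.88. The groups did not overlap, and the difference was -0.72 (SE 0.19, 95% interval -1.12 to -0.33, exact permutation p = 0.0159). Ntm (neurotrimin, ENSMUSG00000059974, chr9:28994750-29963141, minus strand), a cell adhesion molecule on neurons, was the most abundant of the leading lower genes. It measured 7.66, 7.62, 6.90, 7.49 and 8.04 log2 CPM in the resilient pools and 7.19, 6.48, 7.17 and 6.62 in the susceptible pools. Only resilient pool 3 lay within the range of the susceptible pools. The difference of -0.68 (SE 0.19, exact permutation p = 0.0476) became -0.84 without that pool.

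The other leading lower genes differed by -0.39 to -0.71. Taf3, a subunit of the general transcription factor TFIID, was at 4.93 ± 0.54 log2 CPM in the resilient pools (SD, n = 5) and 4.22 ± 0.30 in the susceptible pools (n = 4), a difference of -0.71 (SE 0.22). Hnrnpa0, an RNA-binding protein of AU-rich elements, differed by -0.48 (SE 0.15), and susceptible pool 1 (5.95) lay among the resilient pools (5.70 to 6.02) while the other susceptible pools were at 5.00 to 5.37. Shq1, which helps assemble the ribonucleoproteins of H/ACA small nucleolar RNAs, measured 2.09 to 2.59 log2 CPM in the resilient and 1.36 to 1.97 in the susceptible pools, without overlap (-0.62, SE 0.21, exact permutation p = 0.00794). Pfdn2, a subunit of the prefoldin chaperone, measured 5.90 to 6.28 and 5.40 to 5.81, also without overlap (-0.40, SE 0.13, exact permutation p = 0.0159). Fbxo33, the substrate-binding part of a ubiquitin ligase, differed by -0.39 (SE 0.12). Rps19bp1 (-0.64, SE 0.22), the calmodulin regulator Pcp4 (-0.42, SE 0.15), Ifi27 (-0.54, SE 0.19) and the unclassified transcript AA474408 (-0.63, SE 0.20) completed the 12.

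On the higher side the smallest p belonged to Slc25a30 (ENSMUSG00000022003, chr14:75760117-75787037, minus strand), a carrier of the inner mitochondrial membrane. It measured 3.03, 3.65, 3.94, 3.83 and 3.72 log2 CPM in the resilient pools and 4.33, 4.04, 4.21 and 4.25 in the susceptible pools. The groups did not overlap, and the difference was 0.57 (SE 0.16, 95% interval 0.23 to 0.92, exact permutation p = 0.0159). Resilient pool 1 was the lowest, and without it the difference was 0.42 and still called. Pycrl (ENSMUSG00000022571, chr15:75916477-75921560, minus strand), an enzyme of proline synthesis, measured 2.33, 2.58, 2.74, 2.43 and 2.20 log2 CPM in the resilient and 3.01, 3.18, 3.23 and 2.84 in the susceptible pools. It too showed no overlap (0.61, SE 0.19, exact permutation p = 0.0159). At this level the lowest pool held 15 reads.

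Fam174a (ENSMUSG00000051185, chr1:95313623-95335284, plus strand) measured 3.20 to 4.16 log2 CPM in the resilient pools, 4.18 to 4.56 in the susceptible pools and 4.52 to 4.71 in the control pools, a difference of 0.54 (SE 0.17). The groups of defeated mice did not overlap, and the resilient pools were the ones farther from the controls. Mrpl10, a protein of the mitochondrial ribosome, showed the same order, at 3.85 ± 0.41, 4.37 ± 0.16 and 4.48 ± 0.16 (SD, n = 5, 4 and 5), and its resilient pool 3 (4.44) lay among the susceptible pools. Rps6ka1, the RSK1 kinase downstream of ERK, was 0.40 higher (SE 0.13), and Ppp1r26, a regulatory subunit of protein phosphatase 1, was 0.41 higher (SE 0.14). Cstb, cystatin B, an inhibitor of cathepsins, was 0.66 higher (SE 0.22), and Galnt6, which starts mucin-type O-glycosylation, was 0.35 higher (SE 0.12). For each of these 4 genes the groups did not overlap. Lingo2, a leucine-rich repeat protein of neurons, was at 4.46 to 5.03 log2 CPM in the resilient pools and 4.93 to 5.40 in the susceptible pools (0.39, SE 0.14). Ciao2b, of cytosolic iron-sulfur assembly (0.58, SE 0.20), Fam76a (0.31, SE 0.10) and Ift122 (0.29, SE 0.10) made up the rest.

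**Figure D2:**
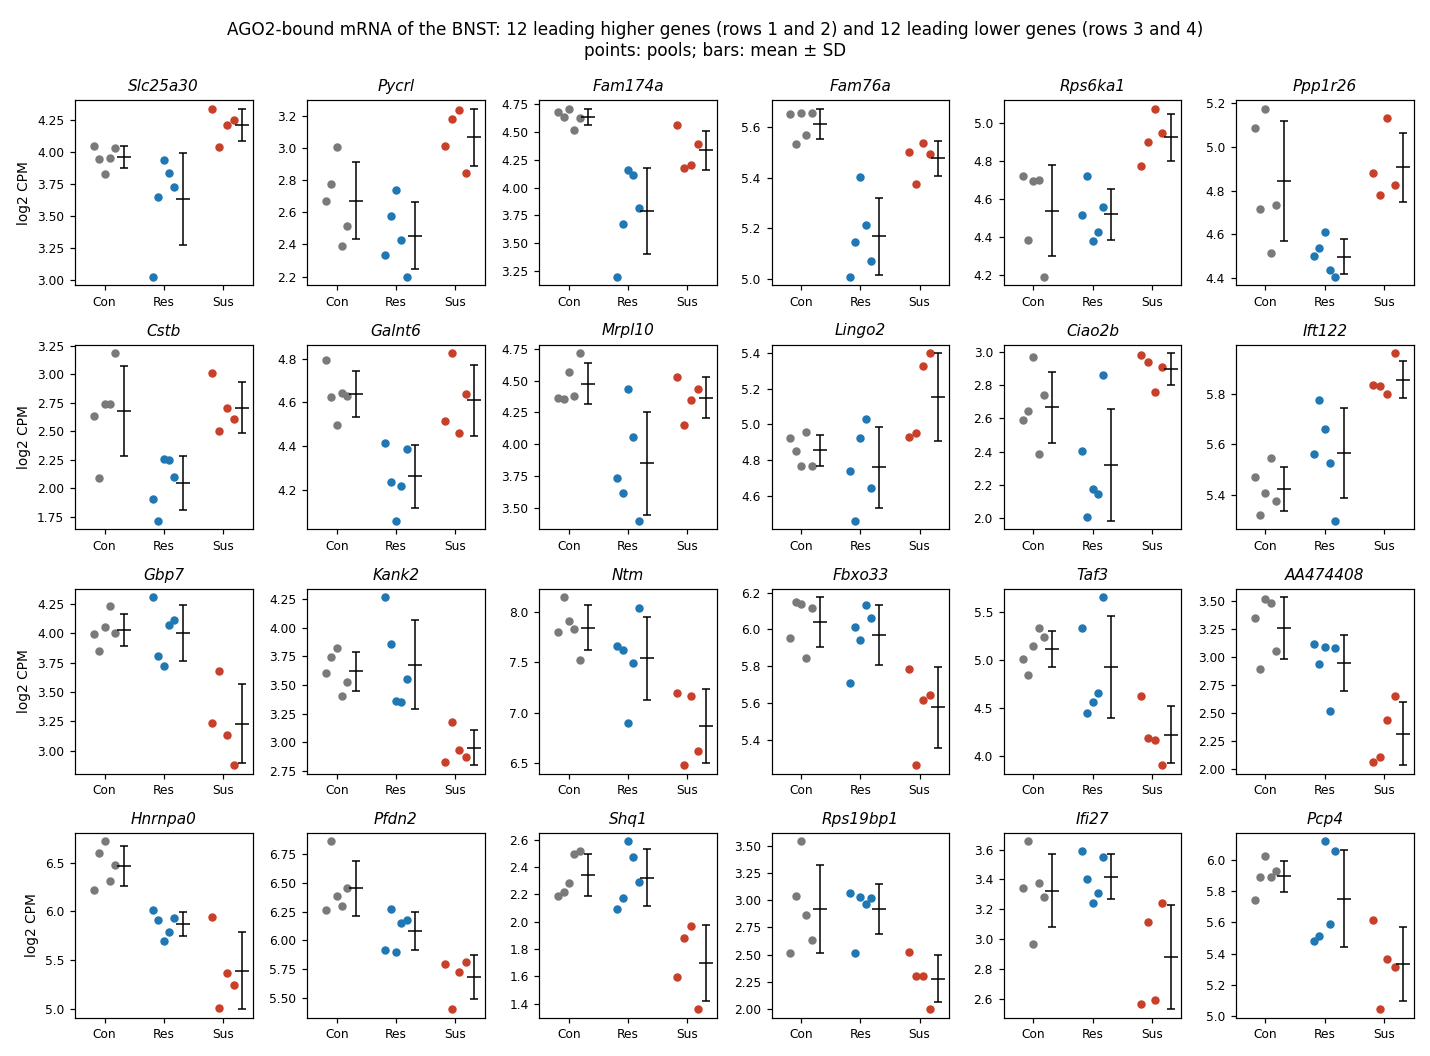
Level of the 24 leading genes in each pool (vertical axes, log2 CPM, not starting at 0), in control (Con, grey), resilient (Res, blue) and susceptible (Sus, red) pools, with the mean and SD beside each group. In the lower 12 panels 10 genes have every susceptible pool below every control pool, while in the upper 12 panels 2 genes have every susceptible pool above every control pool.

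The control pools lay mostly on the resilient side for the lower genes, and were more evenly placed over all called higher genes. For all 12 leading lower genes the control mean was nearer to the resilient than to the susceptible mean, and for 10 of them every susceptible pool was below every control pool. For 8 of the 12 leading higher genes the control mean was nearer to the susceptible mean. Over all called genes the control mean was nearer to the susceptible mean for 86 of 158 higher genes (54.4%) and for 35 of 197 lower genes (17.8%), against 45.9% of all 16587 genes. Hnrnpa0 and Pfdn2 stood in steps, with control means of 6.47 and 6.45, resilient means of 5.87 and 6.08 and susceptible means of 5.39 and 5.68 log2 CPM. These positions are descriptions, because the genes were chosen on the difference between the defeated groups.

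The largest differences at this level were less regular between pools than those of the leading genes. Wtip, a LIM-domain protein of cell junctions, was 0.88 higher (SE 0.31, 1.83-fold) in the susceptible pools. Its resilient pools ran from 1.33 to 3.20 log2 CPM, and the highest was pool 3, which lay among the susceptible pools (2.73 to 3.24). Polr2f, a subunit common to the RNA polymerases, was 0.73 higher (SE 0.28), Dus4l, a tRNA dihydrouridine synthase, 0.70 higher (SE 0.25) with no overlap, and Ppcdc, an enzyme of coenzyme A synthesis, 0.69 higher (SE 0.30). In these 4 genes the lowest value of the resilient group was that of pool 5, the shallowest library, where the fewest reads behind a value were 8, 7, 6 and 7 in that order. Ppcdc lost its call without resilient pool 5, where the difference was 0.37, and without susceptible pool 2.

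On the lower side the largest were noncoding RNAs and 2 protein-coding genes. Rny1, a Y RNA bound by the Ro60 protein, measured 5.31, 6.72, 6.73, 3.62 and 4.65 log2 CPM in the resilient pools and 5.49, 4.00, 3.91 and 3.78 in the susceptible pools. The spread within the resilient pools was larger than the difference of -1.11 (SE 0.52, exact permutation p = 0.206), and the call was kept in 5 of the 14 fits with 1 library left out. Without susceptible pool 2, 3 or 4 it was lost, as it was without resilient pool 1, 2 or 3, where the difference without pool 3 was -0.78. Rnu12, the U12 RNA of the minor spliceosome, differed by -1.03 (SE 0.37). Its resilient pool 3 (3.20) was far below the other resilient pools (4.81 to 5.54), without it the difference was -1.43, and the call was lost without susceptible pool 2. Sstr1, a receptor of the inhibitory peptide somatostatin, measured 2.60, 2.79, 2.29, 2.04 and 2.37 in the resilient pools and 1.16, 1.72, 2.44 and 0.59 in the susceptible pools (-0.94, SE 0.35, exact permutation p = 0.0476). Its call was lost without susceptible pool 4 (the lowest). Dtx3l, a ubiquitin ligase of the interferon response, differed by -0.88 (SE 0.38) and lost its call without resilient pool 2, 4 or 5 or susceptible pool 2 or 3.

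Small nuclear RNAs, most of which work in splicing, were looked at as a group after their values were seen, so their counts are a description. Of 58 in the table, 7 were called lower and 0 higher (12.1%), against 1.92% of the protein-coding genes, and their median difference was -0.18. Without resilient pool 3, 14 were called lower, where 563 of all 16587 genes were called lower. With voom scaled to total reads, 2 were called lower and 1 higher, and the median was -0.03. Without resilient pool 2 the median was -0.01, with 4 called lower and 2 higher. These RNAs have many near-identical copies in the genome, so the copy a read belongs to is uncertain, and most are not polyadenylated.

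Of the gene lists, the transcripts encoded by mitochondrial DNA had the largest share of called members. They code for subunits of the respiratory chain and are made in the mitochondrion, apart from the nuclear genes of the same complexes. Of 13 in the list 7 were in the table, all 7 lay below 0, and 3 were called lower (1.19% of all genes were), with a median of -0.45 against 0.01 for all genes. Without resilient pool 3, 5 of the 7 were called lower, where 563 of all 16587 genes were called lower. mt-Nd5 measured 9.03, 9.15, 8.61, 8.60 and 9.13 log2 CPM in the resilient pools and 8.75, 7.98, 8.29 and 8.80 in the susceptible pools (-0.45, SE 0.16, exact permutation p = 0.0873). Susceptible pools 2 and 3 were the low ones, while pools 1 and 4 lay within the range of the resilient pools. mt-Nd4 (-0.51, SE 0.20) and mt-Cytb (-0.39, SE 0.17) had the same order of pools, and mt-Rnr2, the large mitochondrial ribosomal RNA and no member of the list, lay at -0.59 (SE 0.24, chosen after its values were seen). The summed level of the 7 transcripts was 2780, 1450, 1916 and 2978 CPM in susceptible pools 1 to 4, against 2350 to 3543 in the resilient and 2505 to 3332 in the control pools. Without susceptible pool 2 no member was called and the median was -0.23. With quantile normalization the median of the list was -0.34. Nuclear copies of mitochondrial genes can share reads with them. The 76 nuclear genes of oxidative phosphorylation had a median of -0.02, with Atp5g2 alone called (0.96 higher, SE 0.33), and Ndufb8 at 0.22 (SE 0.10) under the fold minimum. Atp5g2, which shares near-identical sequence with its paralogs, lost its call without susceptible pool 1.

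**Figure D3:**
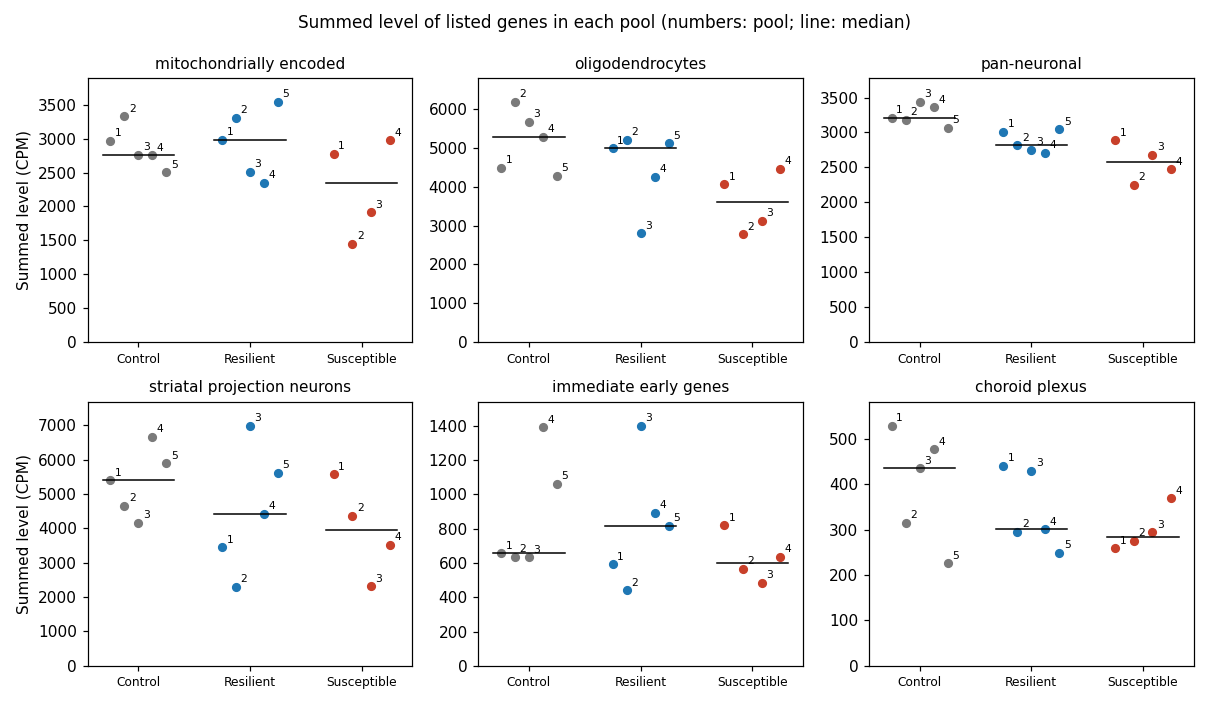
Summed level in CPM (vertical axes, starting at 0) of 6 lists in each of the 14 pools, numbered by pool, with the group median as a line. Susceptible pools 2 and 3 are lowest for the mitochondrially encoded and the oligodendrocyte genes within their group, and resilient pool 3 is highest of all for the striatal and the immediate early genes.

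The same susceptible pools were low in oligodendrocyte markers. The summed level of the 15 markers was 4066, 2779, 3128 and 4455 CPM in susceptible pools 1 to 4, and their median difference was -0.05, or -0.18 without resilient pool 3 and 0.03 with voom scaled to total reads. Cnp, an enzyme of myelin-forming cells, lay at -0.17 (SE 0.10). The 10 pan-neuronal markers had a median of -0.12, 9 of them below 0, with summed levels of 2251 to 2887 CPM in the susceptible, 2712 to 3043 in the resilient and 3065 to 3439 in the control pools. Rbfox3 (-0.31, SE 0.16) and Snap25 (-0.31, SE 0.17) did not pass the test. Without resilient pool 3 Snap25 lay at -0.42 and was called, and 2 of the 10 were called lower, where 563 of all 16587 genes were. The part of cell content in the difference of the mitochondrial transcripts was not tested.

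Interferon-stimulated genes, which cells switch on against viruses, were few but all on 1 side among the calls. Of 22 in the list 18 were in the table, 3 were called lower and 0 higher (Ifi27, Irf7 and Ifi35), where 1.19% of all genes were called lower, and the median was -0.09. Ifi27, the best measured of them, was at 3.24 to 3.59 log2 CPM in the resilient pools and at 2.57, 3.12, 2.59 and 3.24 in the susceptible pools. The groups overlapped only at the edge, where susceptible pool 4 and resilient pool 3 met, and the call held in each of the 14 fits with 1 library left out. Irf7, a transcription factor of the interferon response, differed by -1.50 (SE 0.70), but susceptible pool 1 had 0 reads and the other 3 lay at -0.33 to 0.39 log2 CPM against 0.07 to 2.00 in the resilient pools. Without that pool the difference was -0.63 and not called, and the call was also lost without control pool 1 or 4 or resilient pool 1, 2 or 5. Ifi35 differed by -1.04 (SE 0.47) at a similar low level and lost its call without resilient pool 3, 4 or 5 or susceptible pool 3 or 4. With voom scaled to total reads the median of the list turned to 0.05. Gbp7 and Dtx3l, described above, were not members of the list.

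Markers of tissue that borders the BNST varied strongly between pools. The 18 choroid plexus markers had a median difference of -0.80, the lowest of all lists, but 0 were called, and the median was -0.42 without resilient pool 3. Their summed level was 259.1, 274.6, 293.6 and 369.2 CPM in susceptible pools 1 to 4 and 248.6 to 440.4 in the resilient pools. Ttr, the transthyretin that this epithelium secretes, lay at -2.75 (SE 1.32), and Kcne2, a potassium channel subunit there, lay at -2.30 (SE 1.09). For both, susceptible pool 4 lay among the resilient pools. Ttr had 4, 9 and 6 reads in susceptible pools 1 to 3, and Kcne2 had 0 there and in resilient pool 5. The sizes of these 2 differences are therefore uncertain. The 10 ependymal markers had a median of -0.41 (Foxj1, a factor for motile cilia, at -0.39, SE 0.27, and Ak7 at -0.90, SE 0.51), with 0 called. All 16 striatal projection neuron markers lay below 0 (median -0.13) and 0 were called, and without resilient pool 3 the median was 0.10. The 25 immediate early genes, which neurons switch on with activity, were highest in the same pool. Their summed level there was 1402 CPM, against 1392 in control pool 4. Of these genes 24 lay below 0 (median -0.22), 0 were called, and the median without resilient pool 3 was -0.05. Arc and Fosb lay at -0.49 (SE 0.33) and -0.63 (SE 0.41). Pde10a and Foxp1 of the striatal list lay at -0.28 (SE 0.31) and -0.37 (SE 0.22).

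With all 14 libraries, genes of synaptic signaling were called about as often as the 2.14% of all genes. Of 35 glutamate receptor and scaffold genes, 2 were called lower, and the median was -0.05 (0.02 with voom scaled to total reads). Of 16 GABA receptor genes 0 were called (Gabra2 at -0.37, SE 0.21, and Gabrg1 at 0.38, SE 0.22), and of 34 genes of vesicle release 0 (Syt1 at -0.17, SE 0.11). Without resilient pool 3, 5.71% of all genes were called, and the shares in these lists were above that. In that fit 2 GABA receptor genes were called higher and 1 lower (Gabra2, at -0.53). Of the release genes 2 were called higher and 2 lower, and 3 glutamate receptor and scaffold genes were called lower. Among 9 markers of GABAergic neurons, Dlx2 was called higher (0.45, SE 0.19) and Dlx6 lower (-0.58, SE 0.27), both homeobox factors of inhibitory neurons. Dlx2 lost its call in 4 of the 14 fits and Dlx6 in 10. Dlx6 is overlapped by an antisense transcript whose reads can be told apart only if counting used the strand, which is not given in the sources used here.

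Of 33 neuropeptide and receptor genes known in the BNST only Sstr1 was called. Without resilient pool 3 the list had 2 called higher and 1 lower, where 5.71% of all genes were called. Oprl1, the receptor of nociceptin, lay at 0.29 (SE 0.14). The stress peptide Crh lay at -0.31 (SE 0.47) and its receptor Crhr1 at 0.00 (SE 0.27), which are given for their role and were chosen after their values were seen. Crh was read at a median of 0.670 CPM per kb, and a difference of the size of its SE was not detectable at this depth. Of 24 glucocorticoid receptor and target genes, Klf9, a transcription factor that glucocorticoids induce, was called lower (-0.39, SE 0.16), with Mt1 at -0.27 (SE 0.15). Klf9 lost its call without resilient pool 1, 2 or 5 or susceptible pool 2. Hsp90ab1, a chaperone that also holds the glucocorticoid receptor, lay at -0.24 (SE 0.10), under the fold minimum. None of the 6 gonadal steroid genes was called (Esr1 at 0.29, SE 0.29).

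The machinery that carries the pull-down itself gave 1 call. Ago2 lay at -0.03 (SE 0.10), and among 25 genes of the Argonaute and miRNA machinery the called gene was Tnrc6c, 1 of the GW182 proteins that recruit deadenylases to AGO2. It measured 9.37, 9.25, 9.02, 9.30 and 9.73 log2 CPM in the resilient pools and 9.32, 8.96, 8.94 and 8.88 in the susceptible pools (-0.31, SE 0.13, exact permutation p = 0.0714). Susceptible pool 1 lay among the resilient pools, and the call was lost without any 1 of the other 3 or without resilient pool 5. Xpo5, which exports miRNA precursors from the nucleus, lay at 0.16 (SE 0.09).

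Among the other lists, Rpl19 was the only 1 of 79 cytosolic ribosomal protein genes called (0.28 higher, SE 0.11; Rpl6 lay at 0.25, SE 0.11), and the list had a median of 0.03. In glia and vessels Itgam, the CD11b integrin of microglia (-0.80, SE 0.34), and Flt1, a VEGF receptor of endothelium (-0.28, SE 0.13), were called lower, each alone in its list. Rpl19 lost its call in 3 of the 14 fits, Itgam in 4 and Flt1 in 9. Hist1h3d, a replication-dependent histone gene with near-identical copies, was called higher (1.31, SE 0.59) at a mean of -1.57 and -0.26 log2 CPM, where the lowest pool had 0 reads, and lost its call in 4 of the 14 fits. For Abca1, a cholesterol exporter, the groups did not overlap (0.14, SE 0.09, exact permutation p = 0.00794), although it failed both criteria, and 0 of 26 cholesterol genes were called. Over all 30 lists together, 626 distinct genes were in the table and 4 were called higher and 14 lower (2.88%, against 2.14% of all genes). A total of 18 lists had no called member. Those not described so far were the oligodendrocyte precursors (11 genes, median 0.11), astrocytes (13 genes, 0.02), meningeal fibroblasts (7 genes, -0.05), blood cells (6 genes, 0.08), pallial glutamatergic neurons (6 genes, -0.37), hypothalamic, preoptic and thalamic neurons (12 genes, -0.04), circadian clock genes (21 genes, -0.04) and chaperones (29 genes, -0.05). With voom scaled to total reads, the medians turned above 0 for the meningeal (0.01), hypothalamic (0.08), circadian (0.06), chaperone (0.00) and nuclear oxidative phosphorylation (0.05) lists, so the sign of these small medians depends on the scaling. Without resilient pool 3, where 5.71% of all genes were called, calls appeared in the lists of astrocytes (2 higher) and oligodendrocytes (2 lower). They also appeared for meningeal fibroblasts (1 higher and 1 lower) and hypothalamic, preoptic and thalamic neurons (1 lower). Calls rose to 3 higher for nuclear oxidative phosphorylation and 4 higher for ribosomal proteins.

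**Figure D4:**
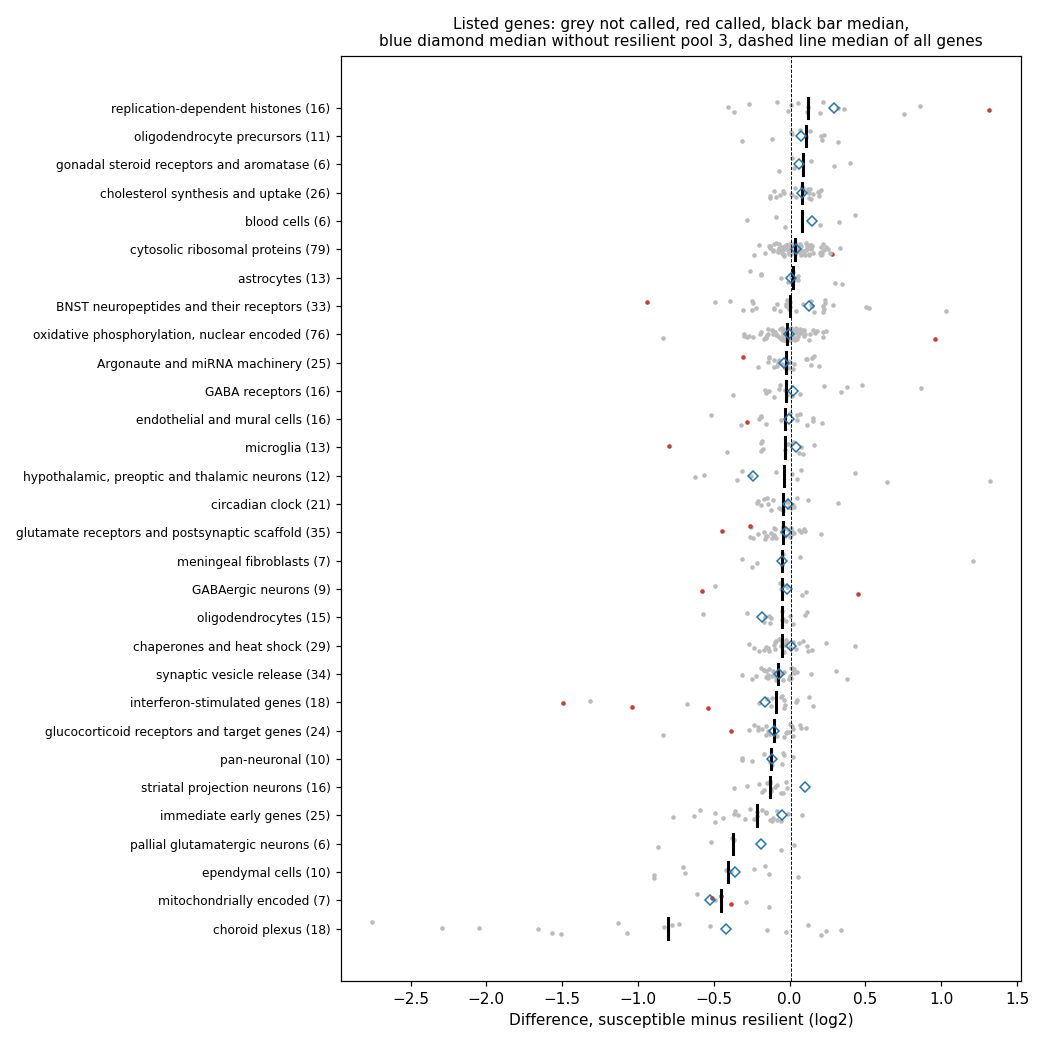
Difference between susceptible and resilient pools (horizontal axis, log2) of every listed gene in the table, with the number of genes after each list's name. Grey points were not called and red points were called, black bars are medians and blue diamonds medians without resilient pool 3. The dashed line is the median of all genes at 0.01, and the choroid plexus median moves from -0.80 to -0.42 without that pool.

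The 3′UTRs of the leading genes were searched for matches to the seeds of the abundant miRNAs. Each 3′UTR was the longest annotated for the gene on GRCm38 (GENCODE M21), read on the strand of the transcript, and a match was the run of 7 bases that pairs with the seed. These runs are GGTTCAA for miR-434-3p, GGCAGCT for miR-22-3p, CTACCTC for let-7, TGTTTAC for miR-30a-5p and GTGCAAT for miR-92b-3p, none of which contains another. Of 23 leading genes with a 3′UTR 7 held at least 1 such match, while 41.7% of the 13866 genes with a 3′UTR did. The leading genes with the smallest p that held a match, 3 lower and 2 higher, are shown here with some of their matches, each with 14 bases before it, the match in capitals (with the A that follows, where there is 1).
Gbp7, miR-22-3p, chr3:142548731-142548752 (plus): aagaaggaaaagtaGGCAGCTA
Gbp7, let-7, chr3:142548492-142548512 (plus): tcattgataaacttCTACCTC
Kank2, miR-434-3p, chr9:21768765-21768786 (minus): ttcccagcaccctgGGTTCAAA
Shq1, miR-22-3p, chr6:100568376-100568396 (minus): atgctgaattggttGGCAGCT
Fam174a, miR-22-3p, chr1:95327430-95327451 (plus): tcgtagattttgtaGGCAGCTA
Fam174a, miR-30a-5p, chr1:95326981-95327001 (plus): tcagctggtagcatTGTTTAC
Fam76a, miR-92b-3p, chr4:132899714-132899734 (minus): aacactggtcgggaGTGCAAT

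The medians of genes with a match lay within 0.03 of 0. Over all 13866 genes with a 3′UTR the median difference was 0.01 and 1.88% were called. The 1494 genes with a let-7 match had a median of 0.01, with 13 called higher and 16 lower (1.94%), and the 529 with the 8-base match CTACCTCA a median of 0.03, with 7 called in each direction. For miR-22-3p the 2215 genes with a match had a median of 0.01 and 18 and 16 calls. For the seed of miR-30a-5p and miR-384-5p it was 2336 genes, a median of 0.00 and 13 and 21 calls, and for miR-434-3p 942 genes, a median of 0.00 and 5 and 8 calls. The 1102 genes with a match to miR-92b-3p had a median of 0.00 with 5 called higher and 14 lower, and of the 411 with its 8-base match GTGCAATA 1 was called higher and 9 lower. For miR-485-3p, the miRNA with the smallest p, 652 genes held GTATGAC, with a median of 0.01 and 2 and 4 calls (0.920%). Genes can hold matches to several seeds, so these sets share members.

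By their annotation the called genes were of lower level than the rest, with a median of 2.90 log2 CPM for the higher and 3.03 for the lower genes against 4.39 for all genes. Their 3′UTRs had a median of 1059 bases (132 higher genes) and 1352 bases (129 lower genes) against 1251 for all, and a GC content of 46.3% and 43.5% against 44.6%.

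**Figure D5:**
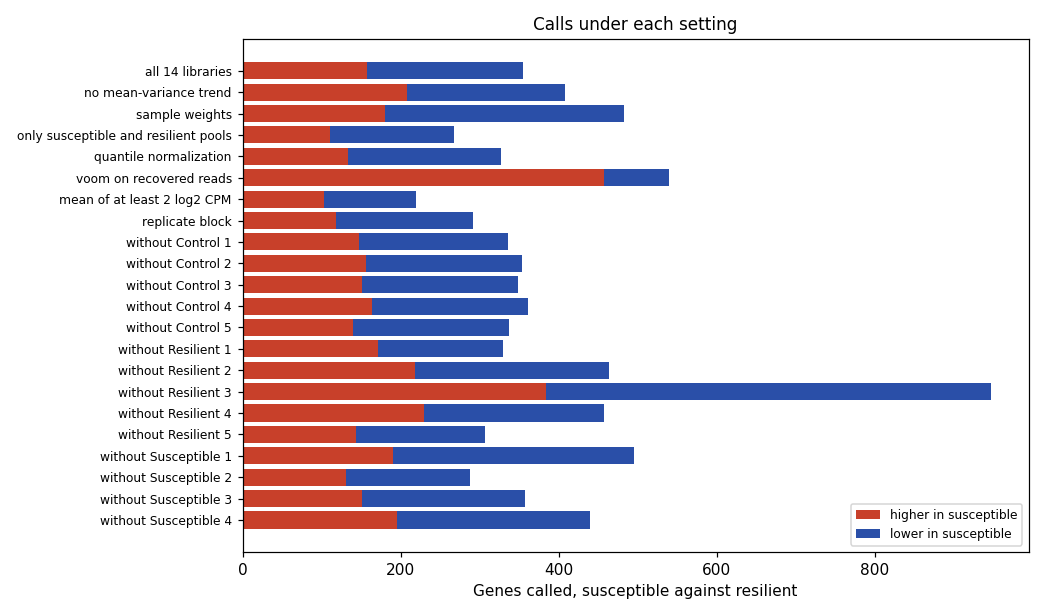
Number of genes called between susceptible and resilient pools (horizontal axis, starting at 0) with all 14 libraries and under each alternative, split into genes higher (red) and lower (blue) in the susceptible pools. The bar without resilient pool 3 reaches 947, against 355 with all libraries, and with voom on recovered reads 457 of 539 calls are higher.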

How the data were processed

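AGO2 was immunoprecipitated from pooled BNST and the bound mRNA sequenced (TruSeq Stranded mRNA, single-end). The authors aligned reads to GRCm38 with STAR, counted them on exons with HTSeq, kept genes with at least 1 CPM in 3 or more samples and normalized with voom, and the table holds log2 CPM as deposited. Back-calculation gave whole reads for every gene in every library. The miRNA table, quantified by the authors with miRDeep2, has the same unit, and susceptible pool 3 was left out by them. A later correction of the mRNA data for experimental cohort was not repeated, since the labels used here give no cohort. The authors corrected the miRNA data for surrogate variables that they detected, and this was not repeated either.

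limma 3.58.1 (R 4.3.3) was fitted to the deposited values of all 14 mRNA libraries (13 for miRNA) with a mean-variance trend and Benjamini-Hochberg adjustment over all features. Features were called at an unadjusted p under 0.05 with a fold change of at least 1.2. Exact permutation tests over the 126 assignments of 9 pools were two-sided. Whether pools share animals or housing is not stated, so p-values measure the spread between these pools. The code was tested on simulated data. Gene positions and 3′UTRs are from GENCODE M21. Named genes were the 12 called with the smallest p and the 4 with the largest difference in each direction, with a mean of at least 2 log2 CPM and without predicted genes, Riken clones and pseudogenes. From each of 30 lists the called members were named, filled up to 2 by smallest p. miRNAs named were the 6 most abundant and the called ones with a mean of at least 5 log2 CPM. Some genes that this rule names are not reported here. Members and lists were chosen with earlier results of these data known. Alternatives were no trend, sample weights, only the defeated pools, quantile normalization, voom on recovered reads, a level filter, a replicate block and each library left out.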

Additional observations from a re-analysis of the deposited data

Results flagged for a closer look

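Values far from the other pools of their group by Dixon's 95% limit were found in 14 of 354 groups of pools tested (3.95%), about the 1 in 20 that chance gives. In resilient pool 5, the shallowest library, Dus4l was low at 0.95 log2 CPM (the others 1.80 to 2.02), Ppcdc at 1.15 (2.55 to 3.04) and Abca1 at 6.86 (7.00 to 7.04). Among the other resilient pools, Rps19bp1 was low at 2.51 in pool 2 (2.96 to 3.07) and Hist1h3d at -2.95 in pool 1 (-1.45 to -0.96). In susceptible pool 4 the choroid plexus genes Ttr and Kcne2 were high at 5.04 (the others -0.31 to 0.24) and 0.20 (-4.01 to -3.36), and Ndufb8 was at 5.20 (5.06 to 5.08). Rny1 was high at 5.49 in susceptible pool 1 (3.78 to 4.00) and Abca1 at 7.27 in pool 2 (7.07 to 7.10). In the control pools, Dus4l was low at 1.57 in pool 4, Ppcdc at 2.55 in pool 2, Atp5g2 at 1.76 in pool 1 and Hist1h3d at -1.56 in pool 3.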

How the results depend on the processing

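The 355 called genes became 539 with voom on recovered reads, among them 226 of the 355 in the same direction. With only the defeated pools 267 were called, among them 230 of the 355 in the same direction. Among genes with a mean of at least 2 log2 CPM (fewer genes tested) 219 were called. With 1 library left out the number was between 288 and 947, highest without resilient pool 3, and the cause was not tested. No setting gave a gene with an adjusted p under 0.05. The 98 genes without overlap became 58 at a mean of at least 2 log2 CPM. The 31 called miRNAs became 56 with sample weights and between 22 and 81 with 1 library left out, highest without susceptible pool 4. Of the 48 named genes that were called, 26 were called in all 21 settings and none changed direction. A replicate block gave 291 called genes and 31 miRNAs. The deviations of same-numbered pools had correlations of -0.22 to -0.02, and 0 of the 4 susceptible pools correlated best with the resilient pool of its number. These values do not decide whether pools of the same number shared a cohort, which the labels do not give. Leaving out a control pool changed only the estimate of the spread. With 4 and 5 pools, an exact permutation p cannot go below 0.00794. Depth limits low genes: 134 called genes had a mean under 2 log2 CPM.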
